A study of Sus scrofa with 32 samples.

Results

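Gene expression in the longissimus dorsi muscle (LD, the loin) was compared between 8 Polish Landrace (PL) and 8 Pulawska (PUL) pigs. These 16 libraries were all the LD libraries among the 32 of the series, and the other 16 came from the semimembranosus (S, a ham muscle) of the same pigs. They were chosen by the muscle and breed in the sample labels, not by any measured value. All pigs were gilts, unrelated and from different farms, kept at a single test station under the same housing and feeding. They were fasted before slaughter and sampled soon after it, and the labels give no treatment. The labels give an age of 180 days for every pig. The publication instead fed the pigs to a set body weight, reports a higher daily gain in PL and treats age at slaughter as a trait that varied. A breed difference in age is therefore possible and could not be checked here. PUL is a native Polish breed held as a genetic reserve, and PL is a lean breed bred for meat yield. The sample labels put PUL in the group of high shear force and PL in that of low shear force, while the publication describes PL pork as the less tender, so the groups are named here by breed. The question was which gene functions differed between the breeds in LD, with PL over PUL as the direction of every fold change.

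The loin is a mixed but mostly fast skeletal muscle, in which long fibres packed with actin, myosin and titin are held by layers of collagen and proteoglycans made by fibroblasts. Capillaries, nerve endings, satellite cells (the stem cells of muscle) and resident immune cells lie between the fibres. Meat texture after slaughter depends in part on the amount and cross-linking of this connective tissue, on the calpain system that cuts structural proteins, and on how glycogen is used up as the muscle turns to meat.

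Total RNA was freed of ribosomal RNA and sequenced as single reads, and expression was given as estimated counts per gene. Counts summed to between 12142258 and 23620162 per library in PUL (median 16146349) and to between 12281626 and 22206192 in PL (median 15595966). The 10 genes with the most counts held 27.3% to 43.8% of a PUL library and 35.9% to 48.9% of a PL library. The markers ACTA1, DES and NEB of skeletal muscle fibres were detected in all 16 libraries and summed to 38344 to 134142 CPM in PUL and 78781 to 168882 CPM in PL. CPM are counts scaled to the total of each library, here with TMM factors, which correct for a few abundant genes taking a large share of a library. Reads shared by near-identical genes, such as hemoglobins, heat shock proteins, lysozymes or histocompatibility genes, were divided between them by an estimate, so these levels carry that uncertainty. In muscle pieces, fewer cells of a type and less RNA per cell cannot be told apart.

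Several libraries stood apart. PUL pigs 1, 2, 3, 4 and 5 held RNA of hepatocyte genes: 26 to 28 of the 29 matched genes of the hepatocyte list were detected in each of them, against 11 or 12 in PUL pigs 13, 16 and 17 and 11 to 19 in the PL pigs. PL pig 14 had the highest level of the 16 pigs in 12 of the 38 gene lists described here, among them the matrix, fibroblast, macrophage, cell cycle and immediate early lists. PUL pig 5 was highest in 5 lists and lowest in 8. The first principal component held 36.5% of the variance and the second 16.8%, and PL and PUL pigs were mixed along both. Pooled libraries were run over lanes as technical replicates per the study's methods, and the labels tie no library to a batch of extraction or sequencing.

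No gene passed the adjusted threshold. edgeR's quasi-likelihood test with Benjamini-Hochberg adjustment was run on 10792 genes, and 0 had an adjusted p at or under 0.05 with a fold change of at least 1.3. At an unadjusted p under 0.05, 393 genes were higher in PL, which is 3.64% of those tested, and 379 were higher in PUL, which is 3.51%. The median log2 fold change of all tested genes was 0.01, and 5484 genes were higher in PL by any amount. With library size alone in place of TMM, that median was -0.18, and PL took 9.40% of the genes under 0.05 in place of 50.9%. With RLE factors, a different correction of the same kind, the median was 0.01 and PL took 53.4%. The even split of directions thus rests on correcting library size for composition, and not on TMM alone. edgeR's exact test called 13 genes and DESeq2 called 19, and all 13 of the exact test, or 0.12% of the genes tested, were called by both. A single gene, UBE2J1, had values that did not overlap between the breeds, which is 0.00927% of the genes tested. The 14 genes that had already been tabulated for this muscle were all under this unadjusted threshold, with 9 higher in PL and 5 in PUL. They were chosen on these same libraries, so their count is not independent evidence, and they were kept out of the gene lists. Genes that the publication reports as differing between the breeds in S of the same pigs were not kept out. Among them are VCAN, KIF23, NR4A2, LXN, CST6, UCHL1 and ASS1, so the counts of their lists are not fully independent of that report. KIT, named below outside the lists, was also reported for S.

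**Figure D1:**
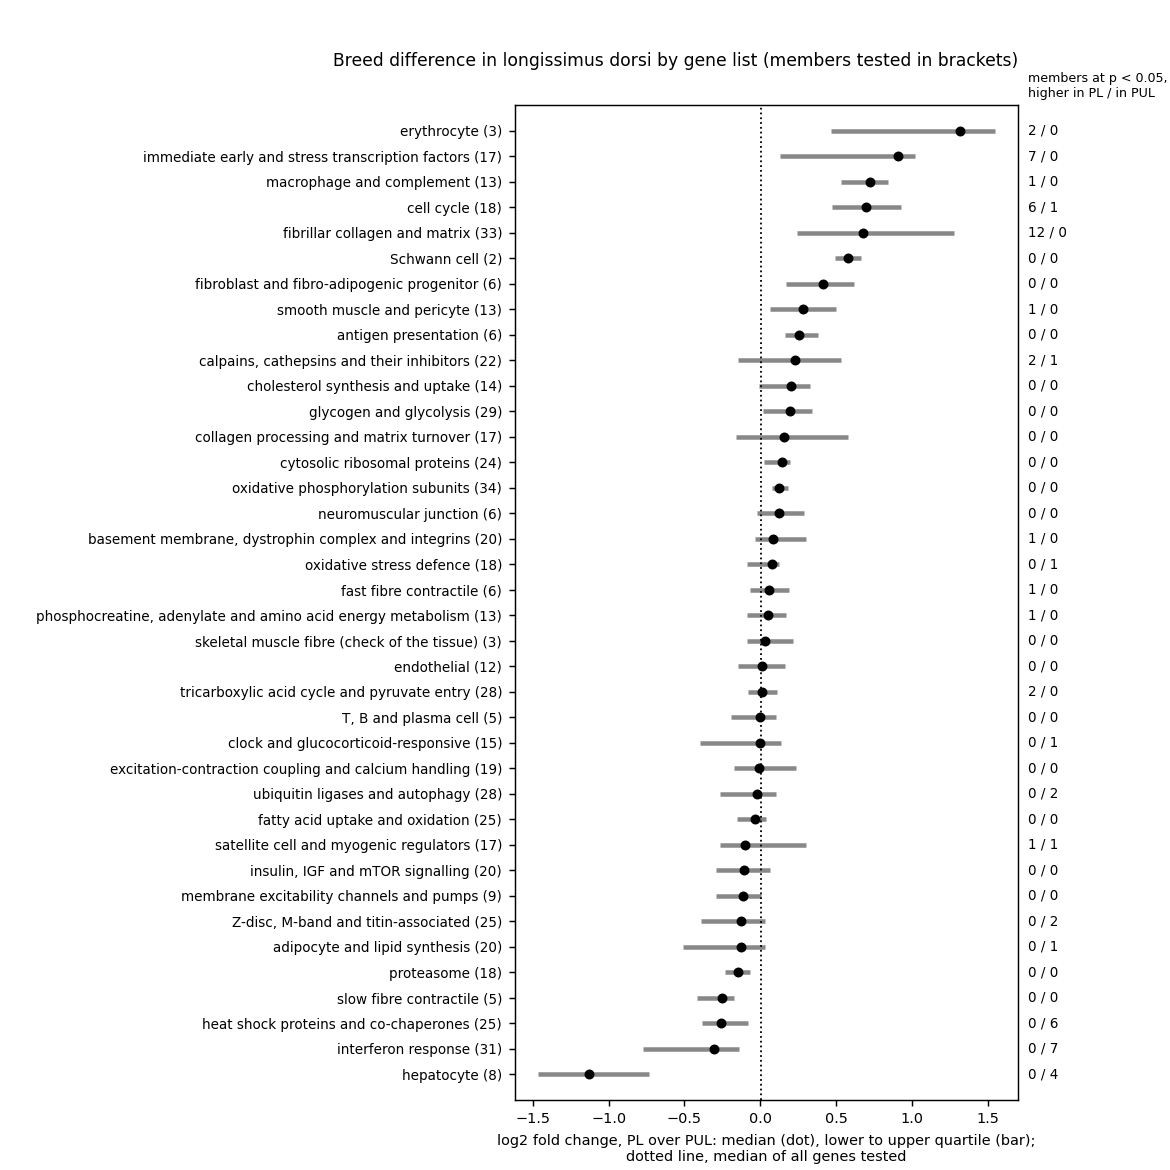
Median log2 fold change (PL over PUL) in LD of the tested members of each of the 38 gene lists, with a bar over the interquartile range of the members and the counts of members at an unadjusted p under 0.05 in each direction. The erythrocyte list lies highest at 1.32 over 3 genes, the immediate early, macrophage, cell cycle and matrix lists lie between 0.68 and 0.91, and the hepatocyte list lies lowest at -1.13 over 8 genes.

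A member counted as having p under 0.05 is one whose unadjusted p in edgeR's quasi-likelihood test was under that value. The p printed beside a fold change is the Benjamini-Hochberg adjusted p of that test over all 10792 genes, and it was 0.161 or above for every gene, so each difference is described and none is called. Levels are given as the lowest, median and highest CPM of the 8 pigs of a breed, and fold changes as log2 values with their standard errors (SE). Of the 38 lists, 23 had a median above 0 and 15 a median below 0, and 20 held at least 1 member with p under 0.05. Of all genes, 3.64% had p under 0.05 and were higher in PL, and 3.51% were so in PUL. At these shares, 1 such member in a list of 20 genes or more lies near the share of all genes. Many medians near 0 had no fixed sign. The median of 13 of the 38 lists changed sign without PUL pigs 1 to 5, that of 7 without PL pig 14, that of 11 with library size alone and that of 6 with the hepatocyte level of each library as a covariate. With RLE factors, that of 1 list changed sign.

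Genes of fibrillar collagen and matrix were higher in PL. Of 33 tested members of this list, 28 were higher in PL, 12 of them with p under 0.05, and none of the 5 higher in PUL had p under 0.05. The median log2 fold change was 0.68, against 0.01 for all genes, and 3.64% of all genes had p under 0.05 in this direction. Among the members were COL3A1 and COL1A2, chains of the fibrous collagens III and I. COL3A1 was at 107, 208 and 1027 CPM in PUL and at 223, 587 and 2758 CPM in PL (log2 fold change 1.43 ± 0.57, adjusted p = 0.601). COL1A2 was at 69.2, 99.7 and 658 CPM in PUL and at 167, 302 and 1442 CPM in PL (1.28 ± 0.56, adjusted p = 0.654). The breeds overlapped for both genes, with PL pig 14 highest of all and PUL pig 17 highest of its breed.

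The proteoglycans that space and bind collagen fibrils pointed the same way. LUM (ENSSSCG00000000916), or lumican, was at 13.6, 28.8 and 111 CPM in PUL and at 27.3, 77.3 and 303 CPM in PL (1.41 ± 0.54, adjusted p = 0.555). ASPN, asporin, was at 2.17, 5.77 and 13.8 CPM in PUL and at 5.96, 10.9 and 57.8 CPM in PL (1.51 ± 0.49, adjusted p = 0.520), and 3 PL pigs lay above every PUL pig. FMOD (fibromodulin), BGN (biglycan) and VCAN (versican) had log2 fold changes of 1.25, 1.28 and 1.01, all with p under 0.05. FBN1 (ENSSSCG00000004658), the fibrillin of elastic microfibrils, had the smallest p of the list. It was at 0.641, 1.09 and 1.60 CPM in PUL and at 0.791, 2.30 and 8.47 CPM in PL (1.42 ± 0.46, adjusted p = 0.520), with 5 PL pigs above every PUL pig. POSTN (periostin), FN1 (fibronectin), COL14A1 and COL5A2 made up the rest of the 12, with log2 fold changes from 0.96 to 1.96. The 5 members higher in PUL were THBS2, COL6A1, COL5A3, ELN and COL6A2, the last with a log2 fold change of -0.11.

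The count of matrix members with p under 0.05 leaned on few pigs, while the median stayed positive in each setting below. By the mean level of the list, PL pigs 14 and 10 were the highest and PUL pigs 5, 1, 3 and 16 the lowest, while PUL pig 17 ranked next after PL pigs 14 and 10. Without PL pig 14, 2 members had p under 0.05 and the median was 0.43. Without PL pig 10, 6 members had p under 0.05 and the median was 0.60. Without PUL pigs 1 to 5, 2 members had p under 0.05 and the median was 0.62. That fit has fewer PUL pigs, and its count over all genes higher in PL was 229 in place of 393. With the hepatocyte covariate the count was 4 and the median 0.81.

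Fibroblast and fibro-adipogenic progenitor markers were also higher in PL. All 6 tested markers were higher in PL, with a median of 0.41, and none had p under 0.05. Without PL pig 14 this median was 0.054, and without PUL pigs 1 to 5 it was 0.24. The 8 matched markers summed to 65.7 to 254 CPM in PUL (median 119) and to 85.3 to 418 CPM in PL (median 147), and none was at 0 in all 16 libraries. The part of cell number in the matrix difference was not tested. CXCL14, a chemokine of stromal cells, had the smallest p (0.72 ± 0.40, adjusted p = 0.740). Genes of collagen processing and matrix turnover split 10 to 7, with a median of 0.15 (-0.06 with library size alone) and no member with p under 0.05. The median was -0.071 without PL pig 14, with 1 member higher in PUL under 0.05, and 0.0035 without PL pig 12. The smallest p was that of MMP14, a membrane-bound collagenase (0.54 ± 0.27, adjusted p = 0.711).

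Basement membrane, dystrophin complex and integrin genes were near balance. Of 20 tested, 13 were higher in PL, with a median of 0.08 (-0.08 with library size alone). Only LAMA4, a laminin chain of vessel and fibre basement membranes, had p under 0.05, at 19.0, 29.9 and 57.8 CPM in PUL and 22.2, 46.6 and 104 CPM in PL (0.74 ± 0.31, adjusted p = 0.627).

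Smooth muscle and pericyte markers were higher in PL for 11 of 13 genes, with a median of 0.28 that was 0.15 without PL pig 14. In the list, only ACTG2, the enteric smooth muscle actin, had p under 0.05. Its levels were 0.0844, 0.496 and 1.10 CPM in PUL and 0.595, 0.866 and 1.94 CPM in PL (0.98 ± 0.36, adjusted p = 0.555). CNN1, the smooth muscle calponin, is among the 14 tabulated genes and was kept out of the list. CNN1 was at 14.2, 35.4 and 56.9 CPM in PUL and at 50.8, 74.5 and 148 CPM in PL (1.38 ± 0.26, adjusted p = 0.179), with 7 PL pigs above every PUL pig. The 15 matched markers summed to 3452 to 9697 CPM in PUL and 3716 to 12569 CPM in PL, so the breeds overlapped over most of the range. Endothelial markers split evenly, 6 and 6, with a median of 0.01 (-0.17 with library size alone), and their sums were 110 to 258 CPM in PUL and 159 to 250 CPM in PL. The lowest p among them was that of ERG, an endothelial transcription factor (0.46 ± 0.25, adjusted p = 0.731). Schwann cell markers could be tested for 2 genes, both higher in PL, of which ERBB3, the neuregulin receptor, had the smaller p (0.75 ± 0.44, adjusted p = 0.761). Their median was 0.58, and it was 0.16 without PL pig 14 and 1.03 without PUL pig 4.

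**Figure D2:**
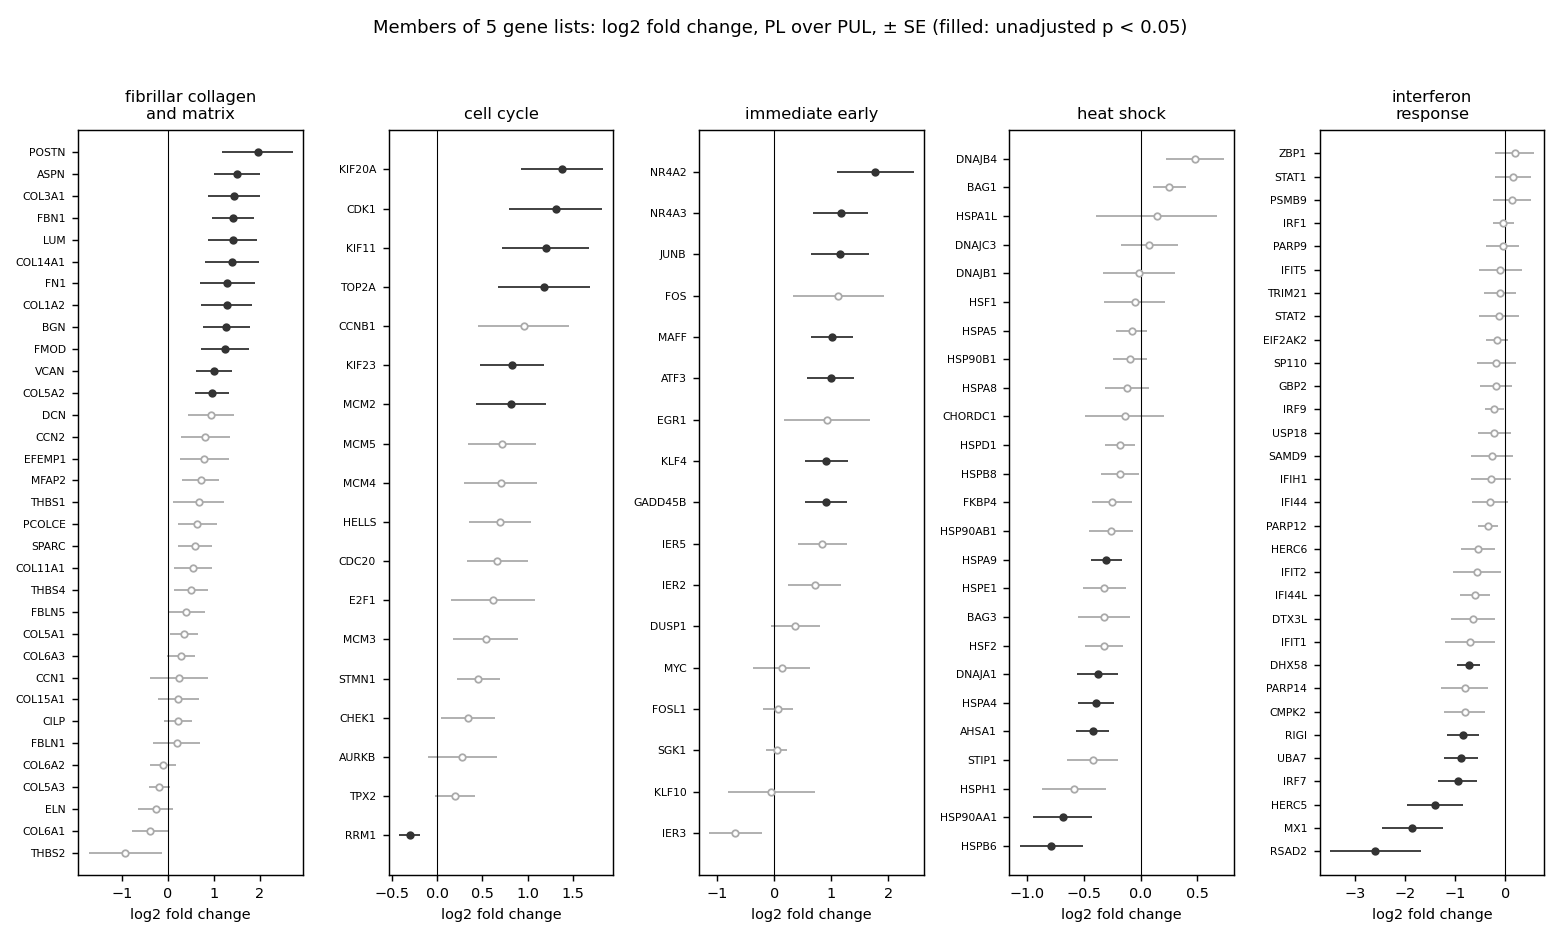
Log2 fold change (PL over PUL, horizontal axis) with its standard error for every tested member of the matrix, cell cycle, immediate early, heat shock and interferon lists, 1 row per gene, with filled points for members with an unadjusted p under 0.05. Of the members, 28 of 33 matrix, 17 of 18 cell cycle and 15 of 17 immediate early genes lie above 0, while 21 of 25 heat shock and 28 of 31 interferon genes lie below 0.

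Cell cycle genes were higher in PL. Of 18 tested, 17 were higher in PL and 6 of these had p under 0.05, against 3.64% of all genes in this direction. The median was 0.70. The 6 were KIF20A, KIF11 and KIF23, motor proteins of the mitotic spindle, CDK1, the kinase that starts mitosis, TOP2A, which untangles chromosomes, and MCM2, a part of the replication helicase. None of them exceeded 7.46 CPM in any pig. KIF20A (ENSSSCG00000014326) was at 0.140, 0.473 and 1.14 CPM in PUL and at 0.793, 0.951 and 2.61 CPM in PL (1.38 ± 0.46, adjusted p = 0.520). PL pigs 10, 14 and 15 lay above every PUL pig, and the other PL pigs fell within the PUL range. CDK1 was at 0.140, 0.577 and 1.69 CPM in PUL and at 0.586, 1.49 and 4.01 CPM in PL (1.31 ± 0.52, adjusted p = 0.583).

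RRM1 ran against the others of the list. RRM1, the large subunit of ribonucleotide reductase, was at 29.1, 36.6 and 40.3 CPM in PUL and at 21.7, 29.0 and 34.6 CPM in PL (-0.30 ± 0.12, adjusted p = 0.579), with 5 PUL pigs above every PL pig. The count of 6 was unstable. It was 2 without PL pig 10 or without PL pig 14, 3 without PUL pig 1, 3 or 5 or PL pig 15, 0 without PUL pigs 1 to 5, and 0 among genes with at least 10 counts in every library, while without PUL pig 17 it was 13.

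Satellite cell and myogenic regulator genes split 8 to 9, with a median of -0.10. MYF5 and MYOD1, transcription factors of the myoblast lineage, had p under 0.05 in opposite directions. MYF5 was at 0.215, 0.639 and 1.09 CPM in PUL and at 0.852, 1.08 and 2.54 CPM in PL (1.05 ± 0.36, adjusted p = 0.540). MYOD1 was at 7.38, 11.7 and 13.2 CPM in PUL and at 2.30, 5.84 and 18.1 CPM in PL (-0.62 ± 0.29, adjusted p = 0.691). PL pig 7 had the highest MYOD1 of all 16 pigs, and without it the fold change was -0.97. Insulin, IGF and mTOR signalling genes were lower in PL for 13 of 20, with a median of -0.11 and no p under 0.05. PIK3R1, a regulatory subunit of phosphoinositide 3-kinase, had the smallest p of that list (-0.63 ± 0.33, adjusted p = 0.720). Without PUL pigs 1 to 5 these medians were 0.055 and 0.0028.

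Immediate early and stress transcription factors, which are switched on within minutes of a stimulus, were higher in PL. Of 17 tested, 15 were higher in PL and 7 of these had p under 0.05, against 3.64% of all genes in this direction. The median was 0.91. The 7 were MAFF, NR4A2, NR4A3, GADD45B, KLF4, ATF3 and JUNB. NR4A2 (ENSSSCG00000015871), an orphan nuclear receptor, was at 0.591, 6.37 and 53.2 CPM in PUL and at 14.4, 31.5 and 96.1 CPM in PL (1.77 ± 0.67, adjusted p = 0.555). All PL pigs lay above 7 of the 8 PUL pigs, and PUL pig 4 alone, at 53.2 CPM, reached into the PL range. Without PUL pig 4 the NR4A2 fold change was 2.92.

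MAFF, a small transcription factor of the stress response, was at 6.30, 9.74 and 13.9 CPM in PUL and at 5.62, 14.6 and 50.5 CPM in PL (1.02 ± 0.37, adjusted p = 0.555). GADD45B, a stress sensor of the cell cycle, was at 7.46, 11.8 and 33.9 CPM in PUL and at 10.5, 27.8 and 51.6 CPM in PL (0.91 ± 0.36, adjusted p = 0.607). KLF4, a zinc finger factor, was at 3.66, 6.30 and 17.2 CPM in PUL and at 6.20, 10.15 and 37.4 CPM in PL (0.92 ± 0.38, adjusted p = 0.615). PL pig 14 was the highest of all pigs for these 3 genes, and without it the fold changes were 0.68 for MAFF, 0.72 for GADD45B and 0.50 for KLF4. FOS and EGR1, the best known members of the list, had fold changes of 1.12 and 0.93 and did not have p under 0.05. The count of 7 was 2 without PL pig 14, 2 with library size alone and 11 without PUL pig 4, and it was 8 without PUL pigs 1 to 5.

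Heat shock proteins and co-chaperones were higher in PUL. Of 25 tested, 21 were higher in PUL and 6 of these had p under 0.05, against 3.51% of all genes in this direction, with a median of -0.26. HSP90AA1 (ENSSSCG00000002535), the inducible HSP90, was at 431, 767 and 1954 CPM in PUL and at 378, 581 and 769 CPM in PL (-0.69 ± 0.26, adjusted p = 0.559). PUL pig 2 held the highest value and 4 PUL pigs lay above every PL pig. Without PUL pig 2 the HSP90AA1 fold change was -0.45.

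AHSA1, which activates the ATPase of HSP90, was at 111, 153 and 220 CPM in PUL and at 91.5, 122 and 149 CPM in PL (-0.42 ± 0.15, adjusted p = 0.534). HSPB6, a small heat shock protein of muscle, was at 5.81, 9.34 and 13.5 CPM in PUL and at 1.88, 5.77 and 9.37 CPM in PL (-0.79 ± 0.28, adjusted p = 0.540). HSPA4, a nucleotide exchange factor of HSP70, had a fold change of -0.40, HSPA9, the mitochondrial HSP70, of -0.30, and DNAJA1, a DnaJ co-chaperone, of -0.38. Of the other members, DNAJB4 pointed the other way with a fold change of 0.48 and adjusted p = 0.724. The count of 6 was 2 without PUL pig 2, 3 without PL pig 10, 1 without PUL pigs 1 to 5 (median -0.07), 1 with the hepatocyte covariate (median -0.10) and 10 with library size alone. Without PUL pig 3, 4 or 5 alone it was 5, 5 and 7.

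**Figure D3:**
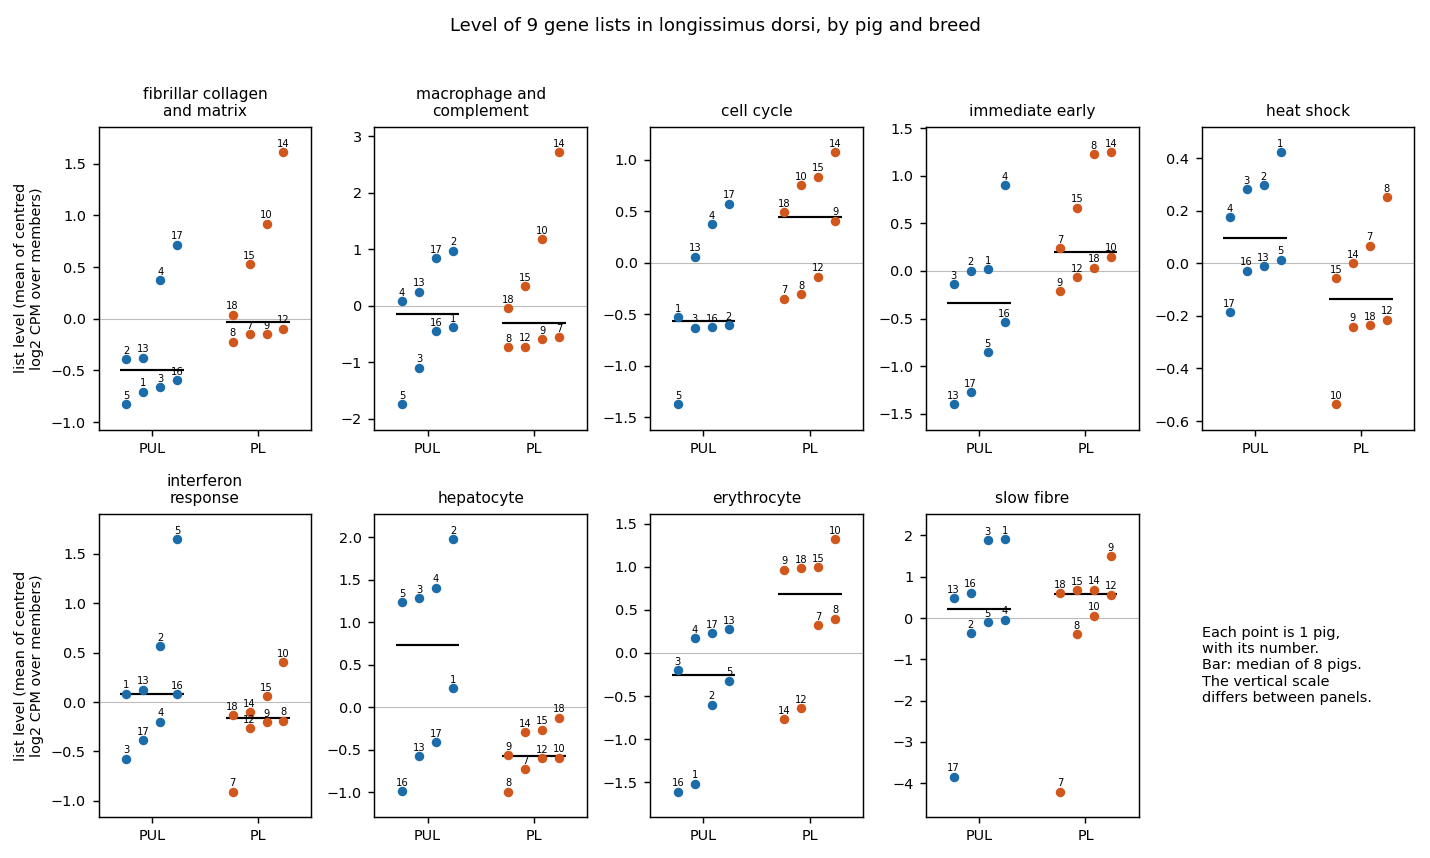
Level of 9 gene lists in each LD library, as the mean over tested members of centred log2 CPM (vertical axis), with 8 PUL and 8 PL pigs as numbered points and the median of each breed as a line. PL pig 14 is highest in the matrix, cell cycle, immediate early and macrophage lists, PUL pig 5 is highest in the interferon list, and PUL pigs 1 to 5 hold the 5 highest levels of the hepatocyte list.

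Interferon response genes were higher in PUL for most members. Of 31 tested, 28 were higher in PUL and 7 of these had p under 0.05, against 3.51% of all genes in this direction. The median was -0.31. The 7 were DHX58 and RIGI, sensors of viral RNA, the antiviral effectors MX1 and RSAD2, UBA7 and HERC5, which attach ISG15 to proteins, and IRF7, a transcription factor of interferon genes. DHX58 (ENSSSCG00000017416) was at 5.92, 9.11 and 18.5 CPM in PUL and at 4.01, 6.11 and 7.0 CPM in PL (-0.74 ± 0.22, adjusted p = 0.513). For DHX58, 6 PUL pigs lay above every PL pig.

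PUL pig 5 held the highest value of all 16 pigs for each of the 7. MX1 (ENSSSCG00000012077) was at 2.38, 4.25 and 64.7 CPM in PUL and at 2.18, 3.45 and 4.62 CPM in PL (-1.86 ± 0.61, adjusted p = 0.520). RSAD2 was at 0.0993, 0.691 and 16.9 CPM in PUL and at 0.0659, 0.438 and 1.04 CPM in PL (-2.59 ± 0.91, adjusted p = 0.540). RIGI was at 6.47, 8.82 and 32.7 CPM in PUL and at 3.50, 6.64 and 7.98 CPM in PL (-0.85 ± 0.31, adjusted p = 0.555). For MX1, PUL pigs 2, 13 and 16 also lay above every PL pig, and the other 4 lay within the PL range. Without PUL pig 5 the fold changes were -0.51 for MX1, -0.71 for RSAD2 and -0.41 for RIGI, the count of 7 members was 1, and the median of the list was -0.07. The count was 4 without PUL pigs 1 to 5, with a median of 0.02, and 1 with the hepatocyte covariate, with a median of -0.021.

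Antigen presentation genes were higher in PL for 5 of 6, with a median of 0.25 and no p under 0.05, and SLA-DOA, a class II chain, had the smallest p of them (0.42 ± 0.36, adjusted p = 0.874). Without PL pig 14 the median was 0.063 and the fold change of SLA-DOA 0.19. Macrophage and complement markers were higher in PL for 12 of 13, with a median of 0.72, and a single marker had p under 0.05. That marker was LYZ (ENSSSCG00000000492), the lysozyme of phagocytes, at 0.140, 1.19 and 7.65 CPM in PUL and at 0.520, 1.23 and 94.9 CPM in PL (2.49 ± 1.12, adjusted p = 0.666). The LYZ value of 94.9 CPM was that of PL pig 14, the medians of the breeds were nearly equal, and without this pig the fold change was -0.02. The median of the list was then -0.05, so the direction of the macrophage list rested on PL pig 14. The 14 matched markers summed to 11.98 to 92.8 CPM in PUL (median 38.0) and to 24.7 to 344 CPM in PL (median 41.1). Of the T, B and plasma cell markers 5 were tested, 2 of them higher in PL and none with p under 0.05. PTPRC, the leukocyte antigen CD45, had the smallest p there (0.47 ± 0.46, adjusted p = 0.890), and its fold change was 0.16 without PL pig 14. The 14 matched markers summed to 27.8 to 77.7 CPM in PUL and 25.8 to 78.0 CPM in PL. A large part of these sums was XBP1, with a mean of 40.4 CPM in each breed.

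Erythrocyte genes were higher in PL. HBB (ENSSSCG00000014725), the beta chain of hemoglobin, was at 29.4, 136 and 279 CPM in PUL and at 96.4, 372 and 1104 CPM in PL (1.78 ± 0.54, adjusted p = 0.513). ALAS2, which starts heme synthesis in red cell precursors, was at 0.394, 1.84 and 3.53 CPM in PUL and at 1.07, 4.23 and 7.76 CPM in PL (1.32 ± 0.44, adjusted p = 0.525). For each gene, 4 PL pigs lay above every PUL pig and the rest overlapped. The third tested gene, SLC4A1, the anion exchanger of red cells, had a fold change of -0.38. The 7 matched genes summed to 31.6 to 284 CPM in PUL (median 142) and 99.4 to 1115 CPM in PL (median 379).

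Hepatocyte genes were higher in PUL, and 5 PUL pigs held the highest levels of the list. Of the 8 tested, 7 were higher in PUL and 4 had p under 0.05 (F2, ALB, ITIH3 and ASS1), against 3.51% of all genes in this direction. The median was -1.13. ALB (ENSSSCG00000008948), serum albumin, was at 8.73 CPM in PUL pig 1, 51.1 in pig 2, 51.1 in pig 3, 89.1 in pig 4 and 70.4 in pig 5, and at 0, 0.0724 and 0.253 CPM in PUL pigs 13, 16 and 17. In PL it ran from 0 to 4.41 CPM with a median of 0.449 (-5.16 ± 1.24, adjusted p = 0.431). PUL pigs 1 to 5 lay above every PL pig, and the other 3 PUL pigs lay within the PL range.

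The whole list of 29 matched hepatocyte genes summed to 60.3 CPM in PUL pig 1 and to between 171 and 286 CPM in PUL pigs 2 to 5, against 34.0 to 41.9 CPM in PUL pigs 13, 16 and 17 and 24.5 to 41.2 CPM in PL. From the 29, APOA2, HPD, KNG1, TAT and TDO2 were picked because they were detected in all 5 of these pigs and in none of the other 11. They are genes of blood plasma proteins and of amino acid breakdown in liver. Other members were also detected elsewhere, such as TF and ITIH1, each in 7 PL pigs. Each list was also fitted without these 5 pigs and with the hepatocyte level as a covariate, and the values are given with the lists they moved.

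F2 (ENSSSCG00000013252), prothrombin, was at 0.289, 2.17 and 4.41 CPM in PUL and at 0.399, 0.693 and 1.12 CPM in PL (-1.70 ± 0.39, adjusted p = 0.431), and 7 PUL pigs lay above every PL pig. F2 was among the genes called by both the exact test (adjusted p = 0.0428) and DESeq2 (adjusted p = 0.0197). In simulated counts of this comparison 15 of 168 calls of the exact test and 25 of 182 calls of DESeq2 were false, against 2 of 143 for the quasi-likelihood test. These counts were drawn once, with planted 2-fold and 4-fold changes and no pig set apart from the others. The false shares depend on that setting and do not weigh the F2 call itself. PON3 (ENSSSCG00000029515), a paraoxonase made in liver, was also called by both and was at 0.253, 2.90 and 13.9 CPM in PUL and at 0.201, 0.351 and 2.34 CPM in PL (-2.73 ± 0.65, adjusted p = 0.431). ITIH3, a plasma protein that binds hyaluronan, had a fold change of -1.39 and ASS1, argininosuccinate synthase of the urea cycle, of -1.24. Without PUL pigs 1 to 5, the fold changes were -1.01 for F2, -0.33 for ITIH3 and -0.08 for ASS1, no member of the list had p under 0.05 and the median was -0.23. These pigs were picked for their ALB level, so the smaller hepatocyte difference without them follows in part from that choice and is no test. Without PUL pig 2 alone, 2 members had p under 0.05 and the median was -0.59.

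Genes of the contractile apparatus differed little. Of the 3 fibre markers, ACTA1, the actin of the skeletal thin filament, was at 30208, 75111 and 119402 CPM in PUL and at 71674, 95358 and 154050 CPM in PL (0.40 ± 0.27, adjusted p = 0.824), and the median of this list was 0.03 (-0.15 with library size alone). Fast fibre genes had a median of 0.06 (-0.08 with library size alone), and a single member had p under 0.05. MYL1, the alkali light chain of fast myosin, was at 8231, 21010 and 23182 CPM in PUL and at 20139, 26120 and 33369 CPM in PL (0.53 ± 0.23, adjusted p = 0.663). For MYL1, 5 PL pigs lay above every PUL pig.

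Slow fibre genes were higher in PUL for 4 of 5, with a median of -0.26 and no p under 0.05. The sign was not stable, since the median was 0.038 without PUL pig 3, 0.51 without PUL pigs 1 to 5 and 0.10 with the replicate block. MYH7B, a slow myosin heavy chain, had the smallest p of these (-0.65 ± 0.53, adjusted p = 0.860). A single pig of each breed lay far below the others: PUL pig 17 and PL pig 7 were at -3.85 and -4.20 on the centred log2 scale, while the other 14 pigs lay between -0.39 and 1.90.

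Z-disc, M-band and titin-associated genes were higher in PUL for 17 of 25, with a median of -0.13 and 2 members with p under 0.05. ANKRD1, a stretch-responsive partner of titin, was at 355, 589 and 2054 CPM in PUL and at 101, 391 and 592 CPM in PL (-1.15 ± 0.40, adjusted p = 0.540). PDLIM3, which binds alpha-actinin at the Z-disc, was at 1133, 1931 and 3100 CPM in PUL and at 927, 1381 and 1657 CPM in PL (-0.54 ± 0.19, adjusted p = 0.540). PUL pig 1 had the highest ANKRD1, and without it the fold change was -0.76. Without PUL pigs 1 to 5, no member had p under 0.05 and the median turned to 0.17, and without PUL pig 17 or PL pig 8, 4 members had p under 0.05.

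In the lists of excitation and of calcium release, no member had p under 0.05. Excitation-contraction coupling and calcium handling genes split 9 to 10, with a median of -0.01, and the smallest p was that of STIM1, the calcium sensor of the sarcoplasmic reticulum (-0.41 ± 0.20, adjusted p = 0.711). Membrane excitability channels and pumps had a median of -0.11 over 9 genes and no member with p under 0.05, and this median was 0.063 without PUL pig 5 and 0.19 without PUL pigs 1 to 5. Neuromuscular junction genes had a median of 0.12 over 6 genes (-0.08 with library size alone), and ACHE, acetylcholinesterase, had the smallest p (0.95 ± 0.53, adjusted p = 0.740). PVALB and CIB2, which bind calcium, are among the 14 tabulated genes and were kept out of these lists. PVALB was at 10.1, 44.7 and 175 CPM in PUL and at 68.4, 315 and 766 CPM in PL (2.09 ± 0.55, adjusted p = 0.481). CIB2 was at 3.37, 4.52 and 7.89 CPM in PUL and at 6.53, 8.97 and 18.1 CPM in PL (1.08 ± 0.23, adjusted p = 0.335). For each, 6 PL pigs lay above every PUL pig.

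Glycogen and glycolysis genes were higher in PL for 22 of 29, with a median of 0.20, and none had p under 0.05. The median was 0.065 without PUL pig 1, 0.092 without PUL pig 2, 0.085 without PL pig 12, 0.074 with library size alone, 0.0023 without PUL pigs 1 to 5 and -0.048 with the hepatocyte covariate. PPP1R3C, which targets protein phosphatase to glycogen, was at 71.9, 111 and 299 CPM in PUL and at 113, 183 and 251 CPM in PL (0.47 ± 0.26, adjusted p = 0.739). LDHA, GAPDH and ENO3, enzymes of glycolysis, had fold changes of 0.45, 0.35 and 0.42, while PFKFB3, HK2 and SLC2A4, the glucose transporter GLUT4, were at -1.35, -0.68 and -0.57. Oxidative phosphorylation subunits were higher in PL for 29 of 34 by small amounts, with a median of 0.13 that was -0.01 with library size alone and -0.062 without PUL pigs 1 to 5, and NDUFB10 of complex I had the smallest p (0.23 ± 0.13, adjusted p = 0.739).

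Tricarboxylic acid cycle genes split evenly, 14 and 14, with a median of 0.01 (-0.14 with library size alone) and 2 members with p under 0.05. FH, fumarate hydratase, was at 124, 154 and 179 CPM in PUL and at 126, 206 and 232 CPM in PL (0.36 ± 0.14, adjusted p = 0.561), with 6 PL pigs above every PUL pig. MPC2, a subunit of the mitochondrial pyruvate carrier, was at 93.1, 112 and 177 CPM in PUL and at 110, 144 and 216 CPM in PL (0.37 ± 0.17, adjusted p = 0.661). A single member had p under 0.05 without any of PUL pigs 1, 2, 4, 5, 16 and 17 or PL pigs 9, 10, 14 and 18 in turn, and none without PUL pigs 1 to 5 together. Phosphocreatine, adenylate and amino acid energy genes had a median of 0.05 (-0.10 with library size alone). Their single member with p under 0.05 was CKMT2, the mitochondrial creatine kinase, at 614, 799 and 1360 CPM in PUL and 951, 1127 and 1741 CPM in PL (0.43 ± 0.19, adjusted p = 0.658).

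Genes of fatty acid uptake and oxidation were lower in PL for 18 of 25, by little, with a median of -0.03 and no p under 0.05. The smallest p was that of ACADVL, a long-chain acyl-CoA dehydrogenase (-0.91 ± 0.51, adjusted p = 0.744). This entry was at only 0.169, 1.15 and 2.56 CPM in PUL and at 0, 0.695 and 1.41 CPM in PL, so its fold change rests on few counts. Adipocyte and lipid synthesis genes were higher in PUL for 15 of 20, with a median of -0.13. Without PUL pigs 1 to 5 the median was 0.11, with 1 member higher in PL under 0.05, and with the hepatocyte covariate it was -0.0014, with 4 such members. The member with p under 0.05 was PCK1, which in fat cells feeds glycerol synthesis, at 9.54, 14.4 and 44.6 CPM in PUL and 6.84, 8.76 and 12.9 CPM in PL (-0.87 ± 0.28, adjusted p = 0.520). PUL pig 2 held the highest PCK1, and the fold change was -0.50 without it. The lipases LIPE and PNPLA2 had fold changes of -0.63 and -0.49, neither with p under 0.05. Cholesterol synthesis and uptake genes were higher in PL for 9 of 14, with a median of 0.20, and SQLE, squalene epoxidase, had the smallest p (0.77 ± 0.39, adjusted p = 0.711).

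Proteasome subunits were higher in PUL for 16 of 18, with a median of -0.15, and none had p under 0.05. The smallest p was that of PSMA5 (-0.20 ± 0.11, adjusted p = 0.740). Ubiquitin ligase and autophagy genes split 13 to 15 with a median of -0.02, and 2 had p under 0.05. Of these, SQSTM1, the autophagy receptor p62, was at 553, 759 and 981 CPM in PUL and at 494, 538 and 677 CPM in PL (-0.46 ± 0.15, adjusted p = 0.520). UCHL1 (ENSSSCG00000022945), a ubiquitin hydrolase known from nerve cells, was at 2.83, 6.87 and 15.1 CPM in PUL and at 1.43, 2.18 and 5.55 CPM in PL (-1.38 ± 0.36, adjusted p = 0.481), and 6 PUL pigs lay above every PL pig. Without PL pig 7, 4 members of the list higher in PUL had p under 0.05.

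Calpains, cathepsins and their inhibitors split 13 to 9, with a median of 0.23, 2 members higher in PL with p under 0.05 and 1 lower. LXN, latexin, an inhibitor of carboxypeptidases, was at 0.911, 4.31 and 9.04 CPM in PUL and at 4.68, 9.37 and 32.9 CPM in PL (1.38 ± 0.43, adjusted p = 0.513). CAPN2, the large subunit of m-calpain, was at 66.6, 71.1 and 96.3 CPM in PUL and at 76.1, 82.0 and 125 CPM in PL (0.28 ± 0.13, adjusted p = 0.691). All PL pigs exceeded the PUL median of CAPN2, and PUL pig 17 alone lay high among the PUL pigs. CST6, a cystatin that inhibits cathepsins, was at 10.9, 19.4 and 33.5 CPM in PUL and at 11.1, 14.3 and 18.1 CPM in PL (-0.52 ± 0.23, adjusted p = 0.663). CAPN3, the muscle-specific calpain, had a fold change of -0.43 and adjusted p = 0.718. A single member higher in PL had p under 0.05 without PUL pig 1, 3, 5 or 16 or without PL pig 14, and the median was -0.01 without PL pig 14.

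Cytosolic ribosomal protein genes were higher in PL for 19 of 24, with a median of 0.14 (-0.04 with library size alone) and the smallest p at RPL14 (0.30 ± 0.17, adjusted p = 0.744). Clock and glucocorticoid-responsive genes split 7 to 8, with a median of -0.01. NPAS2, a partner of BMAL1 in the clock, was the member with p under 0.05 and was at 0.630, 1.12 and 2.75 CPM in PUL and 0.431, 0.693 and 1.26 CPM in PL (-0.82 ± 0.33, adjusted p = 0.607). Oxidative stress defence genes had a median of 0.08 (-0.10 with library size alone) with TXNRD1, thioredoxin reductase, as the member with p under 0.05. TXNRD1 was at 29.3, 42.4 and 53.1 CPM in PUL and at 26.4, 32.7 and 37.5 CPM in PL (-0.41 ± 0.14, adjusted p = 0.520), with 6 PUL pigs above every PL pig.

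Among the genes with a symbol outside these lists and the 14 already tabulated, EFCAB2 (ENSSSCG00000010878), an EF-hand protein, had the smallest p of those higher in PL, at 0.630, 1.10 and 1.45 CPM in PUL and 1.44, 2.17 and 3.34 CPM in PL (0.98 ± 0.26, adjusted p = 0.481). Of the PL pigs, 7 lay above every PUL pig. KIT (ENSSSCG00000008842), the receptor of stem cell factor on mast cells and pigment cells, was at 0.651, 1.05 and 2.64 CPM in PUL and at 2.11, 3.39 and 4.27 CPM in PL (1.11 ± 0.32, adjusted p = 0.513), again with 7 PL pigs above every PUL pig. AIFM2, which reduces coenzyme Q and protects from lipid peroxidation, was at 7.46, 9.85 and 13.7 CPM in PUL and at 10.6, 16.1 and 19.3 CPM in PL (0.62 ± 0.17, adjusted p = 0.513). RASGEF1C, an exchange factor of Ras-like proteins, was at 0.452, 0.751 and 3.33 CPM in PUL and at 2.02, 2.81 and 3.94 CPM in PL (1.38 ± 0.36, adjusted p = 0.481). PUL pig 16 alone held the high RASGEF1C value of its breed, and without this pig the fold change was 1.85 with an adjusted p of 0.0383.

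FANCD2, of the Fanconi DNA repair pathway, was at 0.350, 1.01 and 1.18 CPM in PUL and at 0.923, 1.71 and 3.42 CPM in PL (1.21 ± 0.34, adjusted p = 0.513). SMARCC2, a subunit of the BAF chromatin remodeller, was at 0, 0.635 and 3.44 CPM in PUL and at 0, 6.82 and 22.5 CPM in PL (3.54 ± 0.94, adjusted p = 0.481), with 6 PL pigs above every PUL pig and a listed value of 0 in both breeds. The others were SYNJ2BP of the mitochondrial outer membrane, EMC2 of the membrane protein insertase of the endoplasmic reticulum, TPD52, INPP4B, a phosphatase of phosphoinositides, CCDC25 and ANO10, with log2 fold changes from 0.52 to 0.82.

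Several genes outside the lists were higher in PUL. CIPC (ENSSSCG00000029760), a repressor of the CLOCK factor, was at 89.6, 112 and 165 CPM in PUL and at 59.0, 68.7 and 100 CPM in PL (-0.66 ± 0.17, adjusted p = 0.481), with 5 PUL pigs above every PL pig. TARS2, the mitochondrial threonyl-tRNA synthetase, was at 22.4, 30.0 and 37.7 CPM in PUL and at 16.4, 18.8 and 26.8 CPM in PL (-0.55 ± 0.14, adjusted p = 0.481). HRH1, the histamine H1 receptor, was at 5.18, 6.29 and 8.47 CPM in PUL and at 2.01, 3.62 and 6.16 CPM in PL (-0.73 ± 0.21, adjusted p = 0.513). The breeds overlapped for each of them. TXLNA, a syntaxin-binding protein, ABCF3, KIF13B, a kinesin, and WDR46, a nucleolar protein, had log2 fold changes from -0.76 to -0.56.

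Besides F2 and PON3, the exact test and DESeq2 both called ENSSSCG00000023287 and ENSSSCG00000028809, which have no symbol in the sources used here. ENSSSCG00000023287 had the smallest p of all genes and was at 0, 0 and 0.853 CPM in PUL and at 0, 65.9 and 307 CPM in PL (8.45 ± 1.44, adjusted p = 0.161). For this gene 6 PL pigs lay above every PUL pig, PL values reached down to 0, and the fitted fold change rests on PUL values at or near 0. It passed the adjusted threshold of the quasi-likelihood test without PL pig 12 (adjusted p = 0.0223) and without PL pig 14 (adjusted p = 0.0199). ENSSSCG00000028809 was at 24.8, 37.3 and 53.4 CPM in PUL and at 20.2, 22.2 and 31.98 CPM in PL (-0.70 ± 0.14, adjusted p = 0.334), with 7 PUL pigs above every PL pig.

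**Figure D4:**
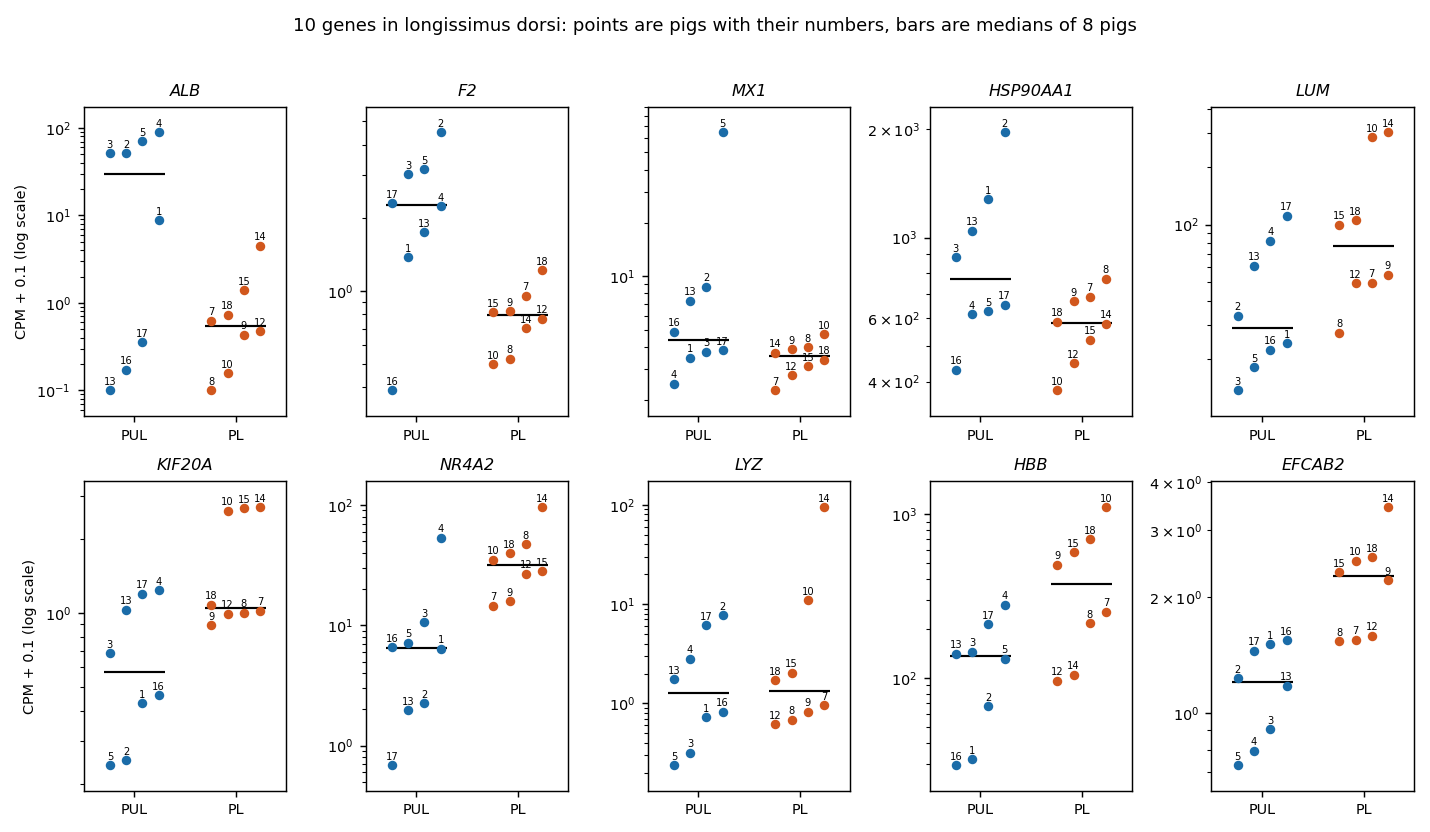
Expression of 10 genes in each LD library as CPM plus 0.1 on a log axis (vertical), with the 8 PUL and 8 PL pigs as points and the median of each breed as a line. ALB separates PUL pigs 1 to 5 from the other 11 pigs, MX1 stands out in PUL pig 5 at 64.7 CPM and LYZ in PL pig 14 at 94.9 CPM, while HBB and NR4A2 are shifted over most pigs of a breed.

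Whether the breed difference in LD differed from that in S was tested as the interaction of breed and muscle in a fit of the 32 libraries that took each pig as a block. Of 11563 genes tested, 0 passed the adjusted threshold and 294 had an unadjusted p under 0.05, which is 2.54%. CYRIA, which binds the GTPase RAC1, had the smallest p, with a breed difference 1.11 ± 0.21 log2 units larger in LD than in S (adjusted p = 0.465). CEP250, a protein of the centrosome, differed by -6.72 ± 1.60 (adjusted p = 0.9996) and NDUFB10 by 0.48 ± 0.15 (adjusted p = 0.9996). In the matrix list 1 of 33 members had an unadjusted interaction p under 0.05, in the immediate early list 2 of 17, in oxidative phosphorylation 3 of 34 and in insulin, IGF and mTOR signalling 2 of 20. In the cell cycle, heat shock, interferon and hepatocyte lists there was none. For ALB the difference between the muscles was -0.10 ± 1.12, for HSP90AA1 0.06 ± 0.22, for LUM 0.13 ± 0.79 and for NR4A2 0.60 ± 0.66, so at this precision these breed differences in LD were not told apart from those in S.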

How the data were processed

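The 16 LD libraries were compared by breed (8 PL over 8 PUL), each from a separate pig, as the labels group them. The authors trimmed reads with Flexbar, mapped them with Bowtie 2 to Sscrofa10.2 and quantified genes with RSEM, after base calling with CASAVA 1.8.2 per the submitters' processing notes. The deposited gene values are RSEM's expected counts, not normalized, which were rounded to whole numbers here. The library kit does not keep strand, so overlapping genes on opposite strands cannot be told apart. All columns were matched to a sample (unmapped columns: 0). The isoform table and baySeq were not used here.

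Analysis was run in R 4.3.3, using the packages DESeq2 1.42.0, limma 3.58.1 and edgeR 4.0.16. edgeR's quasi-likelihood test was run with TMM factors, filterByExpr on breed and Benjamini-Hochberg adjustment over all genes tested, with a threshold of 0.05 and a fold change of at least 1.3. SEs came from the F statistic. The interaction used pig as a block. Symbols were found for 11804 of 25322 gene IDs, and 728 of the 1097 genes in the 38 lists matched an ID. Reference coordinates were of another assembly and are not printed, and no sequences were available to print. A list was described by counts and its median, and its level in a library is the mean of centred log2 CPM with a prior count of 2.

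The breed contrast, the lists and the tests were chosen with earlier results of these data known. Named genes were the 12 of smallest p in each direction with a symbol, outside those tabulated for LD, the member of smallest p in each list with further members under 0.05 up to 4, the genes called by both the exact test and DESeq2, and 3 interaction genes. Other list members named, UBE2J1, PVALB, CIB2, CNN1 and single pigs were chosen after their values were seen. Of the pigs, LD and S deviations correlated between -0.50 and 0.62 (median 0.19, 12 of 16 over 0.1), and the block rests on the shared animal. The value of -0.50 was that of PL pig 14, and the next lowest was -0.048 in PL pig 7. No pair of libraries of a breed was alike (lowest chi-square per degree of freedom 57.9 over 56 pairs). In simulated counts of this comparison, over 10608 genes, the quasi-likelihood test recovered 51% of 2-fold and 90% of 4-fold changes, with 2 false among 143 calls, while the exact test gave 15 false among 168 and DESeq2 25 among 182. Alternatives were the exact test, DESeq2, RLE factors, library size alone, no filter, a minimum of 10 counts in every library, both muscles in a single fit, a replicate block and leaving out each library. Leaving out PUL pigs 1 to 5 and the hepatocyte covariate (mean centred level of the 8 tested hepatocyte genes) were alternatives chosen once the data had been seen.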

Additional observations from a re-analysis of the deposited data

Results flagged for a closer look

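Of 248 sets of 8 values (a named gene, a list level or the total count, within a breed), 18 held a pig at an end farther from its nearest neighbour than the limit for a group of 8 allows (a gap over 0.526 of the range, taken on the log2 scale of CPM plus 0.5 for genes), and chance flags about 1 in 20 such groups. Of these, 6 were list levels on the centred log2 scale. PL pig 14 was highest in Schwann cell genes at 2.07 (next 0.43), in calpains and cathepsins at 1.01 (next 0.25) and in collagen processing at 1.021 (next 0.24). PUL pig 1 was highest in oxidative stress genes at 0.19 (next 0.01). Slow fibre genes were lowest in PL pig 7 at -4.20 (next -0.39) and in PUL pig 17 at -3.85 (next -0.37).

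The other 12 were genes, whose values are printed as CPM. In PUL pig 5, RSAD2 was at 16.9 CPM (next 1.66), MX1 at 64.7 CPM (next 8.63) and RIGI at 32.7 CPM (next 11.3), all of the interferon list. In PUL pig 13, MPC2 was at 177 CPM (next 122) and PSMA5 at 124 CPM (next 99.5), both the highest of their breed, and ANO10 was the lowest at 3.16 CPM (next 5.74). PUL pig 2 had PCK1 at 44.6 CPM (next 17.3), PUL pig 3 had NDUFB10 at 219 CPM (next 165), PUL pig 16 had RASGEF1C at 3.33 CPM (next 1.26) and PUL pig 17 had CAPN2 at 96.3 CPM (next 77.6). PL pig 18 had ITIH3 at 2.03 CPM (next 1.15) and ENSSSCG00000028809 at 31.98 CPM (next 24.1).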

How the results depend on the processing

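The 0 calls became 13 with edgeR's exact test, 19 with DESeq2, 13 by both, 4 with no filter, 6 with both muscles in a single fit, 1 without PUL pigs 1 to 5 (ENSSSCG00000011945, higher in PUL) and 0 to 1 when leaving out each library. They stayed 0 with RLE factors, library size alone, the stricter filter and the hepatocyte covariate. The cause of these changes was not tested. Genes with an unadjusted p under 0.05 were 111 higher in PL and 1070 in PUL with library size alone, 726 and 838 with no filter, which tested 19052 genes, and 229 in PL without PUL pigs 1 to 5. They ranged from 244 to 487 in PL and from 273 to 448 in PUL when leaving out each library. List medians with library size alone were -0.33 for satellite cell, -0.31 for proteasome, -0.24 for ubiquitin and -0.10 for oxidative stress genes. The hepatocyte median was -4.54 with no filter, -0.23 without PUL pigs 1 to 5 and -0.093 with the covariate, but those pigs were picked by ALB and the covariate is made of the same 8 genes, so neither value tests the hepatocyte difference. The Schwann cell median of 0.58 was 1.55 without those pigs and 0.16 without PL pig 14, and the cholesterol median of 0.20 was 0.014 without those pigs. The log2 fold change of LYZ was -0.083 in DESeq2 and ranged from -0.019 (without PL pig 14) to 3.03 when leaving out each library, and that of ALB, itself part of the covariate, was 0.44 with it. In the main fit, same-numbered replicates of the breeds were not treated as paired. Their deviations correlated between -0.30 and 0.57 (median 0.32, 6 of 8 over 0.1). The best match had the own number for 2 PUL and 3 PL libraries. Counts per library tended to fall with replicate number in both breeds. From replicate 1 to replicate 8 they went from 23620162 to 12142258 in PUL and from 22206192 to 13689116 in PL. Whether libraries of the same number shared a step of processing was not tested. The replicate block gave 0 calls, 518 genes higher in PL and 472 in PUL with p under 0.05, with 11 cell cycle members in place of 6 and 3 interferon members in place of 7. At 8 pigs a breed and these totals, scarce transcripts such as KIF20A rest on few counts per library.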
